A study of Mus musculus with 4 samples.

Results

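Cytosolic ribosomal protein genes encode the protein part of the ribosome outside mitochondria. They were taken here as all genes annotated as protein coding whose symbol starts with Rpl or Rps and a number, together with Rpsa, Rplp0, Rplp1 and Rplp2 and without the S6 kinase genes. The rule found 91 of 20194 listed genes. Of these, 55 carry names of the large subunit and 35 names of the small subunit. The remaining one, Rps19bp1, encodes a protein that binds ribosomal protein S19 and is not itself a subunit protein. A further limit of the rule is that 7 members carry pseudogene names although the tables give them as protein coding. All but Rpl39l were listed at both stages.

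Eukaryotic ribosomes hold 1 copy of nearly every ribosomal protein, assembled with ribosomal RNA in the nucleolus, while P1 and P2 stand in several copies in the stalk that recruits translation factors. Ribosomal protein mRNAs are known for a terminal oligopyrimidine (TOP) start, a C at the cap followed by an unbroken run of C and U, through which mTOR signalling and LARP1 adjust their translation. The genes are also known for their many processed pseudogenes, intronless copies of the mRNA scattered over the genome. In endothelium, as in other tissues, ribosome production accompanies growth and division.

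The study set C57BL/6 mouse brain endothelial cells of wild-type embryos beside those of UCP2f/f;Tie2-cre embryos at embryonic day 15 (E15) and 18 (E18), with 1 library for each of the 4 groups. In the second genotype, called knockout below, floxed Ucp2, which encodes a mitochondrial inner membrane carrier, meets Cre recombinase driven by Tie2, a promoter active in endothelial and also in many blood cells. No library has a replicate, so ratios between 2 libraries come without a p-value and compare these libraries only. Library totals lay between 15542930 and 21992660 reads. Ucp2 itself had 4285 reads at E15 in wild type and 2666 in the knockout, and 6696 and 3296 reads at E18. As CPM, a gene's reads scaled so that every library has the same total, these were 276, 163, 351 and 150. Each knockout library thus held less Ucp2 than its wild-type partner, though reads of the gene were not absent. All 12 endothelial markers had reads in every library, with summed levels of 17856 to 21009 CPM. Markers of other cells were also present: mural cell markers summed to between 4496 and 10808 CPM, microglia and macrophage markers to between 39.6 and 628 CPM, and neuronal markers to between 52.6 and 115 CPM. Erythroid markers summed to between 406 and 918 CPM, and neural progenitor and astrocyte markers to between 276 and 410 CPM. How the cells were isolated is not stated in the labels. In such bulk libraries, fewer cells of a type and less RNA per cell cannot be told apart.

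The start of 7 genes is shown first, since the TOP start is the sequence feature for which the family is known. Each line gives 20 bases on either side of the RefSeq transcript start (build GRCm38.p6) on the transcribed strand, and the capitals mark the run of C and T that begins with a C at the annotated start. The windows are Rpl15 at chr14:18270967-18271006, Rps6 at chr4:86857348-86857387, Rps10 at chr17:27635225-27635264, Rps18 at chr17:33955646-33955685, Rpl35 at chr2:39005112-39005151 and Rpl38 at chr11:114668560-114668599. Rpl4, at chr9:64173367-64173406, is set beside them as the most abundant member, which has no such run at its annotated start.
Rpl15: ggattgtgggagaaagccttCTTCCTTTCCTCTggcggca
Rps6: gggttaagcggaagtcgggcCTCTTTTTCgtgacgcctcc
Rps10: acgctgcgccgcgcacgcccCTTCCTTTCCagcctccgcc
Rps18: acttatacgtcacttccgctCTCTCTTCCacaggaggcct
Rpl35: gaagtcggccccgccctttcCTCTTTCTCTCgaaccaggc
Rpl38: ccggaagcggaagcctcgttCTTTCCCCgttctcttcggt
Rpl4: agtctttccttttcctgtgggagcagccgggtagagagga

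A C at the annotated start with C or T at each of the next 4 bases, searched on the transcribed strand at that place only, was found in 14 of the 64 members with an entry in the RefSeq promoter table (21.9%). Over all genes of that table the share was 3.01% (813 of 27025), and it was 0 of 68 for mitochondrial ribosomal protein genes. In Rpl4 a pyrimidine run lies just upstream of the annotated start, so a start placed a few bases away decides whether a gene is counted. The 13 members with the TOP start that were abundant enough for ratios had medians of 0.11, -0.11, -0.07 and -0.43 in the 4 ratios described below. The 46 members without it had 0.04, -0.11 and -0.25, and the 45 measured in the last ratio had -0.37.

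Ribosomal protein genes made up a small share of the reads, lower at E18 than at E15. They took 1.07% of the wild-type E15 library (exact binomial 95% interval 1.06% to 1.07%) and 0.978% of the knockout E15 library (0.973% to 0.983%). The wild-type E18 library had a share of 0.839% (0.835% to 0.843%) and the knockout E18 library one of 0.832% (0.829% to 0.836%). These intervals cover counting error only. Both E18 libraries thus lay below both E15 libraries, and the same order held for large subunit names, with 0.659%, 0.598%, 0.526% and 0.521%, and for small subunit names, with 0.406%, 0.378%, 0.311% and 0.309%. Transcripts of the mitochondrial genome, which share the library totals, took 1.55%, 1.19%, 0.810% and 0.716% in the same order. Mitochondrial ribosomal protein genes, encoded in the nucleus, took 0.249%, 0.264%, 0.243% and 0.254%.

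Levels differed widely among genes whose products enter the ribosome in equal number. Per kb of transcript, the highest mean levels over the 4 libraries were those of Rpl4, which lines the tunnel through which the new protein leaves (1012 CPM per kb), Rps6, the substrate of the S6 kinases (790.0 CPM per kb), and Rplp0, the base of the stalk (764 CPM per kb). Rps9 (579 CPM per kb), Rpl15 (575 CPM per kb), Rps3a1 (478 CPM per kb), Rpl6 (468 CPM per kb), Rps2 (426 CPM per kb), Rps14 (345 CPM per kb) and Rpl10 (324 CPM per kb) followed. Of these 10 genes, 8 were also among the 10 highest per kb of coding sequence, where Rps3 and Rpl41 took the places of Rps14 and Rpl10. The 10 members with the most reads held between 68.6% and 71.6% of all ribosomal protein reads in each library. At the other end, Rpl13a had 1, 9, 14 and 2 reads in the wild-type E15, knockout E15, wild-type E18 and knockout E18 libraries, an order kept below wherever 4 values are given. Rpl24 had 5, 1, 8 and 4 reads and Rpl23a had 14, 5, 15 and 5. Among the 87 members with an annotated coding length, the highest level per coding kb was 2644 times the lowest. The lowest was Rpl39l, a paralogue of Rpl39 listed at E18 alone with 1 and 2 reads. Next came Rpl24 with 0.522 CPM per coding kb, beside 1239 for Rpl4.

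**Figure D1:**
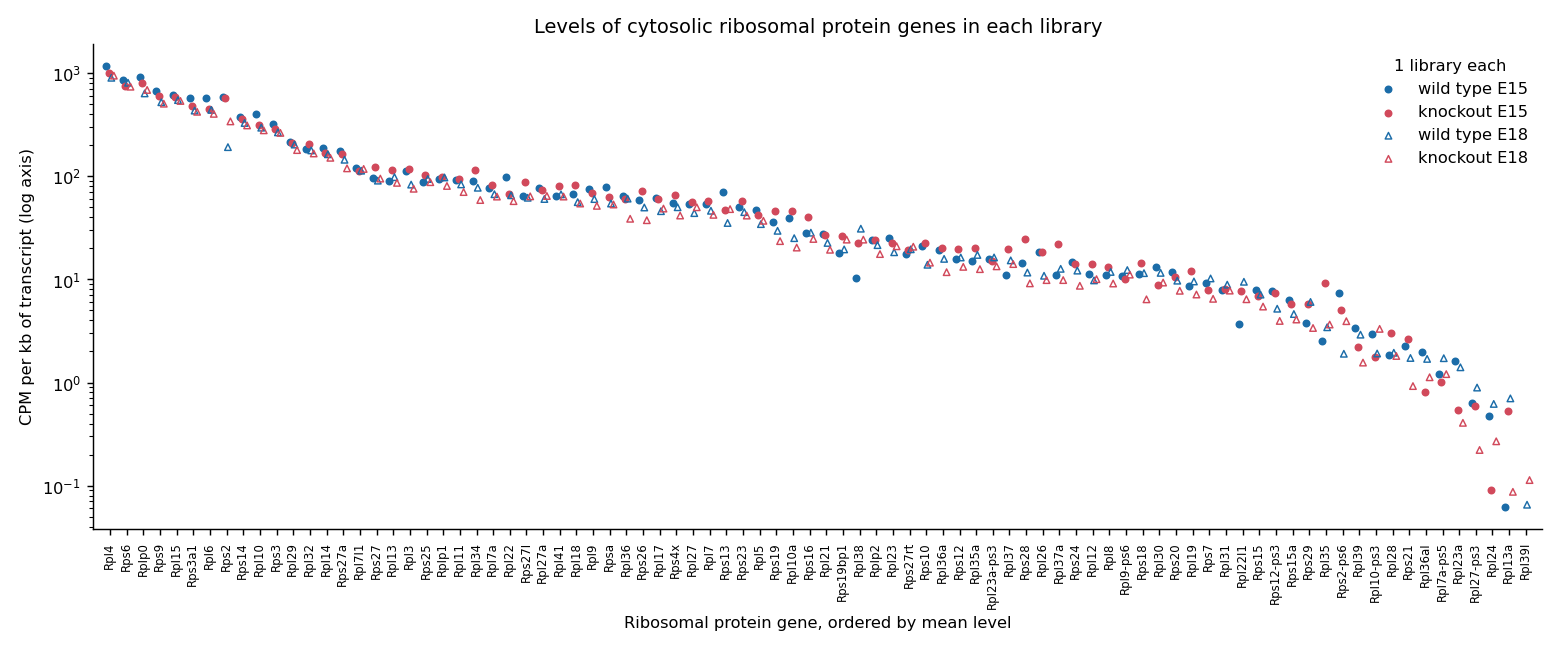
Level of 86 of the 91 ribosomal protein genes in CPM per kb of transcript (log axis), ordered by their mean; each symbol is 1 library (circles E15, triangles E18, blue wild type, red knockout). Levels run from about 1012 CPM per kb for Rpl4 down to genes with a handful of reads, and the 4 libraries keep nearly the same order, with Rps2 in the wild-type E18 library as the most visible departure among abundant genes.

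The order of the genes was nearly the same in all libraries. Across the 86 members with a coding length and reads listed at both stages, Spearman's rho of the level per coding kb between 2 libraries lay between 0.984 and 0.990. These are correlations across genes that share library preparation, gene length and mapping, and are given as a description. The ratio of the highest to the lowest of a gene's 4 CPM values had a median of 1.51 over the 90 members listed at both stages.

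Copies and neighbours of the genes bear on what could be counted. At least 1 stretch of 50 bases was shared with an annotated pseudogene in 88 of the 91 members, and the median member shared such stretches with 9 pseudogenes. The median share of a member's 50-base stretches that occur in no other annotated gene was 40%. This share hardly followed the level per coding kb (rho 0.09 over 87 members): Rps6 was among the 10 highest genes with 15.4% unique stretches, and Rpl4 with 83.5%. Overlap with other genes showed a clearer pattern. In 15 members some exon bases also lie in exons of another GENCODE gene, and rho between that share and the level was -0.37 over the same 87 members. The share was 71.5% for Rpl24, 59.3% for Rpl13a, 55.4% for Rpl23a and 63.1% for Rpl36al, which are ranked 86, 85, 84 and 83 of 87 by level per coding kb. Rank 87 belongs to Rpl39l, which has no such overlap. Rpl35 (68.3%, overlapping Arpc5l on the opposite strand and Wdr38) was ranked 71 and Rps10 (63.6%) was ranked 54. The genes overlapping Rpl24, Rpl13a, Rpl36al and Rps10 are not among the listed genes by name, while Tlcd1, which overlaps Rpl23a, is. The part of the overlap in these levels was not tested.

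**Figure D2:**
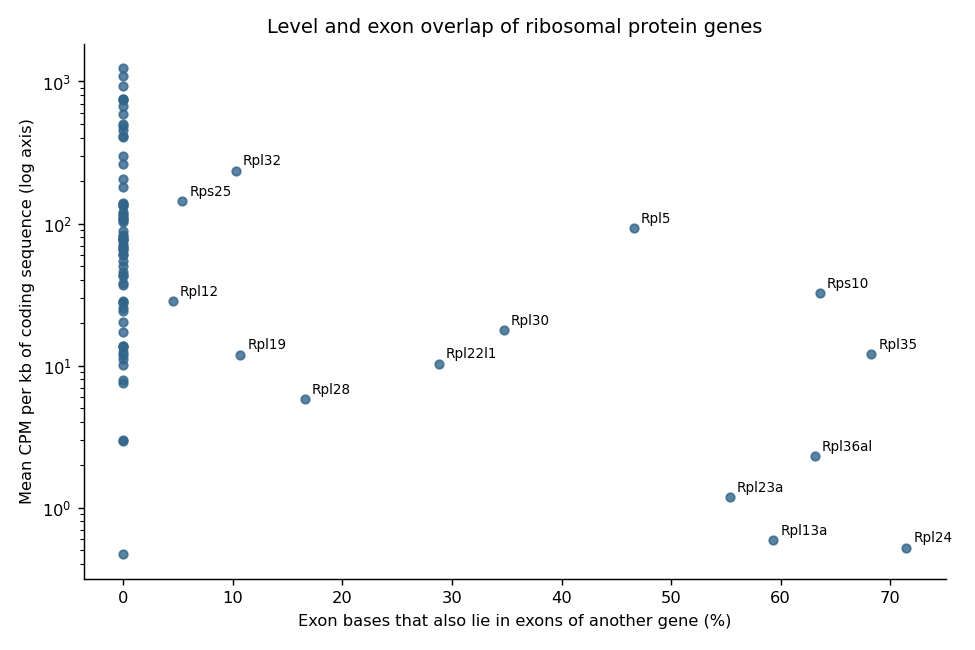
Mean level of 82 ribosomal protein genes with a coding length in CPM per kb of coding sequence (log axis) against the share of their exon bases that also lie in exons of another annotated gene; each point is 1 gene and overlapping genes are named. Rpl24, Rpl13a, Rpl23a and Rpl36al, with 55.4% to 71.5% overlap, sit at the lower right, while Rps10 and Rpl5 lie well above them.

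For ratios between libraries, a gene had to reach 1 CPM in a compared library and 50 reads over both. This kept 83 of the 91 members, and 82 for the stage ratio in the knockout. Ratios are log2 of CPM plus a pseudocount of 1 CPM, which understates differences of weakly expressed genes, and a gene was called at 1.5-fold on this scale. Intervals are exact 95% intervals on reads scaled by library totals, leave out the pseudocount and cover counting error only.

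At E15, low-abundance members tended to be higher and abundant ones slightly lower in the knockout library. The first comparison asks how the knockout library differed from the wild type at this stage. The median log2 ratio of the 83 members was 0.04, beside -0.01 for all 12633 genes, and 45 members lay above 0. The sign of this median turned with the choice of genes: it was -0.07 for the 30 members reaching 50 CPM in a compared library, and -0.07 after subtraction of the median of genes of like transcript length. Past 1.5-fold, 9 members were higher and 0 lower. Over all genes 9.29% were higher and 9.51% lower, so the share higher, 10.8%, was near the background.

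The highest ratio was that of Rpl35, a protein near the tunnel exit, with 37, 143, 62 and 76 reads (E15 log2 ratio 1.53, 95% interval 1.35 to 2.44). The knockout E15 library thus stood apart from the other 3. Arpc5l, whose exons overlap those of Rpl35 on the other strand, had 653, 736, 618 and 787 reads.

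Rpl38, known from mouse mutants with skeletal patterning defects, had 3.73, 8.15, 11.3 and 8.87 CPM, the wild-type E15 library being the low one. Its E15 ratio was 0.95 (0.67 to 1.60). Rpl37a had 6.11, 12.4, 7.08 and 5.50 CPM, with a ratio of 0.91 (0.66 to 1.38), and here the knockout E15 library was the high one. Rpl22l1 (0.79, from 32 and 70 reads) was also called, as were Rpl37 and Rps28. All 9 were of low abundance, with 16.5 CPM for Rpl37 in the knockout E15 library as the highest value. Rpl22l1 shares 28.8% of its exon bases with another gene, so reads of that stretch cannot be assigned with certainty.

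The lowest E15 ratios were those of Rps13 (-0.57, -0.76 to -0.41), Rpl22 (-0.54, -0.72 to -0.39), Rpl30 (-0.48, -0.98 to -0.14), the pseudogene-named Rps2-ps6 (-0.45, from 98 and 71 reads) and Rpl6 (-0.35, -0.40 to -0.32). Rpl6, with 11373 and 9339 reads at E15, was the most abundant of these 5. Among the abundant genes the difference was small and in the same direction: Rpl4 had 1813 and 1558 CPM (-0.22), Rplp0 1249 and 1096 CPM (-0.19) and Rps6 750 and 660 CPM (-0.19).

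This split by abundance was seen when the members were divided by mean CPM. The 27 least abundant had a median E15 ratio of 0.30 with 19 above 0, the 27 of the middle 0.21 with 17 above 0, and the 28 most abundant -0.08 with 9 above 0. When the members were divided by coding length instead, the 27 shortest had a median of 0.26 against -0.11 for the 27 longest. Genes outside the family also varied with transcript length at E15, from a median of 0.11 in the shortest of 10 length groups to -0.06 in the longest. Microglia and macrophage markers summed to 628 CPM in the wild-type and 304 CPM in the knockout E15 library, neuronal markers to 115 and 59.5 CPM. Mural markers summed to 6841 and 4496 CPM, with a median ratio of -0.71. Of 8 mural genes measured, 6 were lower past 1.5-fold and 1 was higher. Their part in the ribosomal protein ratios was not tested.

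At E18 most members were slightly lower in the knockout library, while 21 lay above 0, with Rps2 the highest. The median log2 ratio of the 83 members was -0.13, beside 0.00 for all 12349 genes, and 62 members lay below 0. Past 1.5-fold, 2 members were higher and 3 lower, both shares under the backgrounds of 8.59% higher and 10.7% lower. The family was thus shifted by a small amount with few large ratios. Sex, read from Xist below, cannot be told apart from genotype in these ratios. Microglia and macrophage markers summed to 39.6 CPM in the wild-type and 72.3 CPM in the knockout E18 library, with a median ratio of 0.92 and 7 of 10 measured genes higher past 1.5-fold. Mast cell and neutrophil markers had a median of 1.81 with 5 of 6 higher, at sums of 138 and 153 CPM. Their part in the ribosomal protein ratios was not tested.

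Rps2, a small subunit protein near the site where mRNA enters, was the highest. It had 595, 571, 192 and 341 CPM, so the wild-type E18 library was the low one and the knockout E18 library lay between it and the E15 pair. The E18 ratio was 0.83 (0.77 to 0.89), from 3664 and 7510 reads. Rps2-ps6 stood at 0.73 (0.43 to 1.70) and Rps13 at 0.43 (0.26 to 0.63). Rps19bp1 had a ratio of 0.30 and Rpl23 of 0.18.

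Among the lowest E18 ratios were those of Rps18 (-0.70, -1.27 to -0.42, from 123 and 79 reads) and Rpl36 (-0.62, -0.86 to -0.44, from 445 and 327 reads). Rps7 (-0.57) and Rps24 (-0.46) were also low. Rps19 had 435, 585, 438 and 401 reads, with the fewest CPM in the knockout E18 library, and an E18 ratio of -0.32 (-0.53 to -0.13). At this stage the 27 least abundant members had a median of -0.27 and the 28 most abundant -0.09, the reverse of the order at E15.

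**Figure D3:**
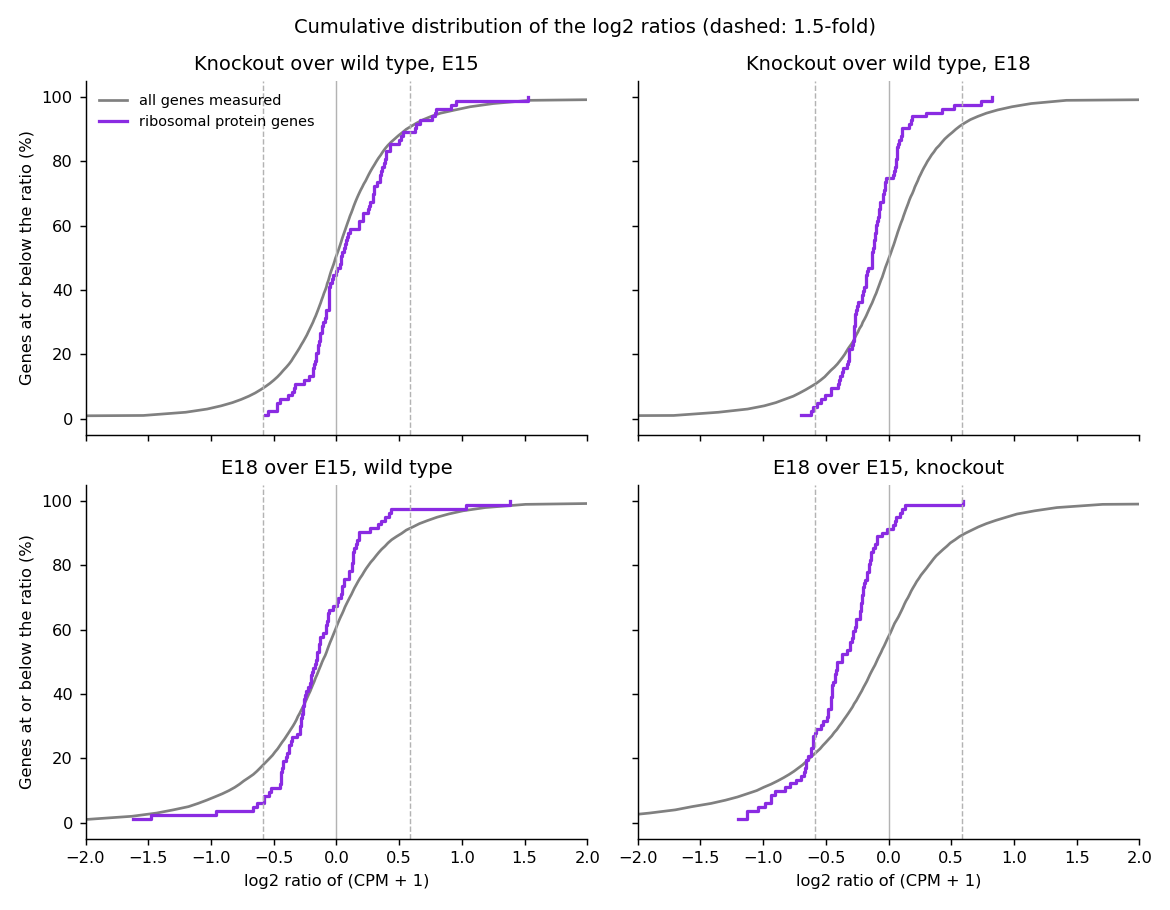
Cumulative distribution of the log2 ratio of (CPM + 1) for ribosomal protein genes (purple) and all genes measured (grey) in the 4 comparisons, with dashed lines at 1.5-fold and the axis ending at 2 on either side. The purple curve follows the grey one closely around its middle at E15 and in the wild type, and, but for the lowest ratios, lies to its left at E18 and most clearly in the E18 over E15 ratio of the knockout, where the medians are -0.39 and -0.10.

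The genotype ratios at E15 and E18 rest on different libraries, and across the 83 members they were weakly and negatively related (Pearson r -0.21, rho -0.21, given as a description across genes of the same libraries). In 11 members the ratios had opposite signs with both counting intervals off 0 and both ratios at least 0.25 from 0, and over all 11784 genes with both ratios this held for 10.2%. Of the 11, 9 were higher in the knockout at E15 and lower at E18, and the other two, Rps13 and Rps2-ps6, the reverse.

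**Figure D4:**
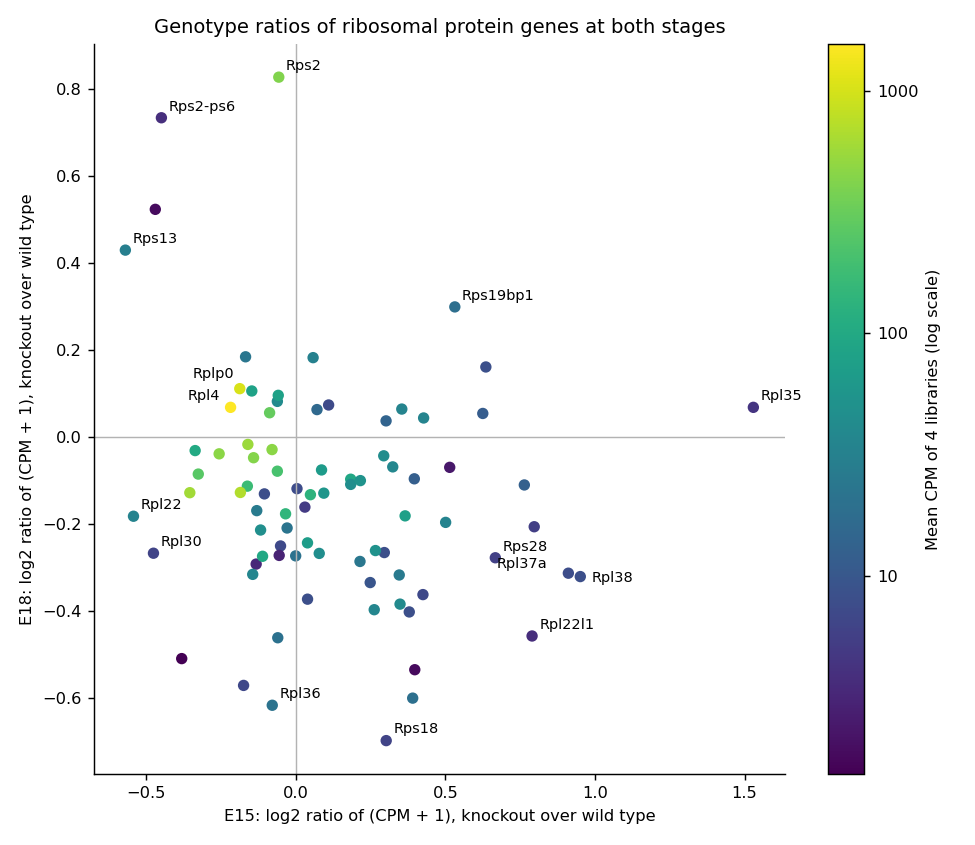
Log2 ratio of (CPM + 1), knockout over wild type, at E15 (horizontal) and E18 (vertical) for 83 ribosomal protein genes, coloured by mean CPM on a log scale; each point is 1 gene. Abundant genes such as Rpl4 and Rplp0 cluster near 0, and genes of low abundance spread to the lower right. Rps2 and Rps2-ps6 stand at the top, and Rpl35 stands alone at the right with 1.53.

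Fitted over both stages, no ribosomal protein gene passed the test for genotype. The edgeR quasi-likelihood test took all 4 libraries, fitted stage and genotype together and left 1 residual degree of freedom. In it, 0 of 83 members and 0 of 13416 genes (0% higher and 0% lower) had a Benjamini-Hochberg adjusted p under 0.05 by edgeR. At an unadjusted p under 0.05 the edgeR count of members was also 0, beside 672 of all genes (5.01%). DESeq2 called 0 members, with 1 at an unadjusted p under 0.05, beside 604 of all genes (4.50%). In this fit the other stage stands in for a replicate, so a genotype effect that differs between stages counts as error. Ucp2 itself had a log2 effect of -0.99 with an edgeR adjusted p of 0.50. Both knockout libraries lay above both wild-type libraries in 4 of the 83 members (12.3% of all genes) and below in 7 (13% of all genes).

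Between E15 and E18 most members stood lower at the later stage. The ratios differed with abundance in both pairs, in opposite order. In wild type the median log2 ratio of the 83 members was -0.16, and that of all 12515 genes was -0.11. With TMM scaling the median of all genes moved by 0.11 on the log2 scale, to 0.00, and in the knockout by 0.11 to 0.01, so the members are read against that median, from which they differed by -0.05. Past 1.5-fold, 2 members were higher and 5 lower, beside 8.49% and 17.9% of all genes (1063 and 2246 genes). Under TMM, 2 members were higher and 3 lower, beside 1384 and 1769 genes. The 27 least abundant members had a median of 0.10 with 18 above 0, the 27 of the middle -0.25 with 6 above 0, and the 28 most abundant -0.25 with 3 above 0. Among the 27 members reaching 50 CPM in a compared library the median was -0.28, beside -0.06 for all genes of that level. Sex, read from Xist below, cannot be told apart from stage in the wild-type pair. Microglia and macrophage markers summed to 628 CPM in the E15 and 39.6 CPM in the E18 wild-type library. All 10 measured genes were lower past 1.5-fold, with a median of -3.55. Erythroid markers summed to 406 and 918 CPM in the same libraries, with a median of 1.05. Past 1.5-fold, 4 of 7 measured erythroid genes were higher and 1 was lower. The part of these markers in the ribosomal protein ratios was not tested.

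Rpl38 and Rpl22l1 were the members higher at E18 in wild type. Rpl38 went from 58 to 216 reads (1.38, 1.18 to 2.05) and Rpl22l1 from 32 to 100 reads (1.03, 0.76 to 1.97). In the knockout pair the same genes had ratios of 0.11 (-0.20 to 0.45) and -0.22 (-0.76 to 0.21). For both genes the low value was that of the wild-type E15 library. Rpl37 had a ratio of 0.42 in wild type.

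Rps2 had the lowest stage ratio in wild type, -1.63 (-1.69 to -1.57), from 9242 to 3664 reads. In the knockout its ratio was -0.74 (-0.79 to -0.70), from 9330 to 7510 reads. Rps2-ps6 (-1.48), Rps13 (-0.96, -1.18 to -0.81), Rpl26 (-0.67) and Rpl10a (-0.63) were also called lower in wild type. With TMM scaling, Rpl26 and Rpl10a were no longer past 1.5-fold.

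In the knockout pair the median of the members lay further below that of other genes. It was -0.39, beside -0.10 for all 12465 genes, a distance of -0.29, and 75 of 82 members lay below 0. The 27 least abundant members had a median of -0.49 with 5 above 0. For the 27 of the middle it was -0.46 with 1 above 0, and for the 28 most abundant -0.22 with 1 above 0. This was the reverse of the order in wild type. Among members reaching 50 CPM the distance from all genes of that level was -0.20 in the knockout and -0.22 in wild type, and the family's share of reads, given above, differed more between the stages in wild type than in the knockout. The difference between the genotypes was not tested. Past 1.5-fold, 1 member was higher and 22 were lower, beside 10.6% and 21.5% of all genes. The share lower was 26.8%, above that background, but this depended on the scaling. With TMM scaling 11 of the 22 remained, 13.4% of the members beside 17.97% of all genes, and centred on the median of all genes the shares were 14.6% and 18.1%. Microglia and macrophage markers, at 304 CPM in the E15 and 72.3 CPM in the E18 knockout library, and mural markers, at 4496 and 10808 CPM, also differed between these libraries, and their part in the ribosomal protein ratios was not tested.

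The lowest were Rps28 (-1.20, -1.83 to -1.02), Rpl35 (-1.13, -1.76 to -0.93), Rpl10a (-1.13, -1.38 to -0.98), Rpl37a (-1.04, -1.51 to -0.84) and Rps18 (-0.98, -1.59 to -0.76). Rpl35, Rpl37a and Rps28 are also members that were high in the knockout E15 library, which both ratios share. Rpl10a was lower at E18 in both genotypes, with 29.0, 33.7, 18.4 and 14.9 CPM. Of the more abundant genes, Rps26 had 48.9 and 25.6 CPM in the E15 and E18 knockout libraries (-0.91), Rpl34 55.1 and 28.3 CPM (-0.93), and Rpl3, which reaches towards the peptidyl transferase centre, 158 and 103 CPM (-0.62). Rpl10-ps3, with 22 and 56 reads, was the member called higher. Among members with at least 100 reads the highest ratios were small, led by Rpl9-ps6 (0.13), Rpl38 (0.11) and Rps27rt (0.09).

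In the fit over both genotypes, no member passed the test for stage with edgeR, and Rps2 was nearest. The fit held no term for sex. The edgeR quasi-likelihood test called 53 of 13416 genes higher (0.395%) and 49 lower (0.365%) at E18, among them 0 of 83 members. At an unadjusted p under 0.05, 8 members were lower and 0 higher by edgeR, beside 11.5% of all genes lower, so the members' count was no higher than the background. These were Rps2, Rpl10a, Rpl3, Rplp0, Rps9, Rps26, Rpl34 and Rps19, named after their values were seen. Rps2 had a log2 effect of -1.19 (SE 0.22, from the F statistic) and an edgeR adjusted p of 0.064. DESeq2 called Rps2 alone among the members, with a log2 effect of -1.08 and a DESeq2 adjusted p of 5.77e-06. Scaled by library totals, both E18 libraries lay below both E15 libraries in 47 of the 83 members, a share to be read against 33.9% of all genes, and above both in 3, against 17.2% of all genes.

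Rps13 and its near-identical copy Rps13-ps1 had reads in opposite patterns. Rps13, at chr7:116331505-116334195 (minus strand), had 645, 451, 397 and 624 reads, high in the wild-type E15 and knockout E18 libraries. Rps13-ps1, a processed pseudogene on chromosome 8, had 174, 310, 309 and 132 reads, low in those same libraries. Rps13-ps2, on chromosome 7, had 49, 4, 15 and 55 reads, high in the same libraries as Rps13. Over the 453 coding bases, Rps13-ps2 was identical to Rps13 and Rps13-ps1 differed at 2 positions counted from the A of the start codon, T411C and A429G. The stretch from coding base 370 to 429 holds both, and capitals mark the differing bases.
Rps13: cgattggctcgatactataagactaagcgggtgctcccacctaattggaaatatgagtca
Rps13-ps1: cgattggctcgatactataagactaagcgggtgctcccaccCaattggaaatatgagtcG
Rps13-ps2: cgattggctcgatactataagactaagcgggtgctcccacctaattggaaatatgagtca

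Summed over the gene and its 3 listed pseudogenes, the values were 56.8, 48.1, 38.2 and 37.0 CPM, and Rps13 itself made up 73.0%, 57.5%, 54.5% and 76.7% of them. The E15 ratio of the sum was -0.24 (-0.38 to -0.10) against -0.57 for the gene alone, and the E18 ratio was -0.05 (-0.19 to 0.10) against 0.43. The stage ratios of the sum were -0.56 in wild type and -0.37 in the knockout, against -0.96 and 0.04. The opposite genotype ratios of Rps13 at the 2 stages were therefore not seen in the summed reads.

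Rps2, at chr17:24718116-24721929 (plus strand), behaved otherwise. Its 5 listed copies, Rps2-ps6 among them, held 287, 235, 108 and 203 reads beside 9242, 9330, 3664 and 7510 of the gene. The gene made up 96.99% to 97.54% of the sum in every library, and the ratios of the sum (-0.07, 0.82, -1.63 and -0.74) were nearly those of the gene. However, Rps2 shares 50-base stretches with 71 annotated pseudogenes, and 21.0% of its stretches are unique. Reads at copies outside the 5 listed ones are not in this sum. Rps2-ps13, which matches 872 of the 879 coding bases of Rps2 (99.2%), had 8.81, 6.86, 2.94 and 4.55 CPM, lowest in the wild-type E18 library as Rps2 was. Rps2-ps6, with 98, 71, 31 and 74 reads, was also lowest in that library.

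**Figure D5:**
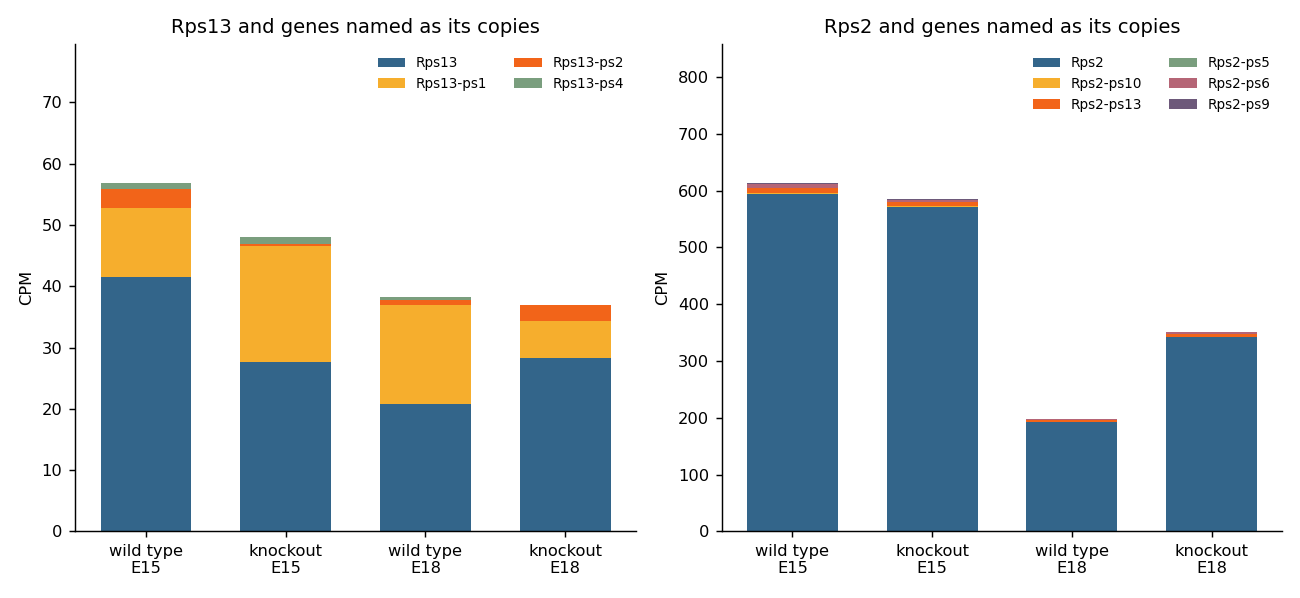
CPM of Rps13 (left) and Rps2 (right) with the genes named as their copies, stacked, in each library. For Rps13 the boundary between the gene and Rps13-ps1 shifts between libraries while the sum goes from 56.8 to 37.0 CPM; for Rps2 the copies are a thin layer and the gene itself is low in the wild-type E18 library.

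The paralogue pairs that the tables hold mostly differed in level. Rpl7l1 had 314, 296, 296 and 308 CPM, one of the steadiest members, and Rpl7 had 63.4, 67.7, 54.0 and 49.3 CPM. Per kb of transcript their mean levels were 116 and 50.4 CPM. Rpl22 had 46.8, 31.8, 31.1 and 27.3 CPM, highest in the wild-type E15 library, and Rpl22l1 had 2.06, 4.29, 5.24 and 3.55 CPM, lowest in that library. Their E15 genotype ratios, -0.54 and 0.79, had intervals on opposite sides of 0. At E18 both were lower in the knockout, at -0.18 (-0.35 to -0.02) and -0.46 (-1.01 to -0.12). Their stage ratios in the knockout were -0.21 and -0.22, so they differed in sign only in ratios that use the wild-type E15 library. Rpl22 is known to restrain Rpl22l1 expression in mouse cells, and whether it did so here was not tested. Rps27 had 33.3, 42.9, 31.4 and 32.9 CPM and Rps27l 32.4, 43.9, 31.0 and 32.0 CPM, nearly equal in each library and highest in the knockout E15 library. Only 1.35% of the 50-base stretches of Rps27 are unique, against 77.6% for Rps27l, so equal counts need not mean equal expression. Rpl36a had 9.39, 9.68, 7.65 and 5.68 CPM, and Rpl36al had 16, 7, 17 and 13 reads. Rpl39 had 32, 22, 34 and 21 reads, and Rpl39l, listed at E18 alone, had 1 and 2.

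Of the 4 X-linked members, Rpl10 had 320, 255, 238 and 224 CPM, highest in the wild-type E15 library, with genotype ratios of -0.33 at E15 and -0.09 at E18. Rps4x had 53.7, 64.8, 49.0 and 40.7 CPM, with ratios of 0.27 (0.14 to 0.40) and -0.26 (-0.40 to -0.13). Rpl36a and Rpl39 had E18 ratios of -0.37 and -0.51. Xist, made from the inactive X chromosome, had 2549, 2109, 0 and 547 reads in the 4 libraries. At E18 Xist was higher in the knockout library (log2 ratio 4.69). The other 4 sex-specific transcripts measured were lower, down to -8.26 for Ddx3y. Sex thus cannot be told apart from genotype at E18, nor from stage in the wild-type pair, for these or any other genes. In the knockout stage pair Xist was lower at E18 (log2 ratio -2.33), with reads in both libraries. What this difference means for other genes was not tested.

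Stalk proteins and reference genes followed different patterns. Rplp0, often used for normalization, had 1249, 1096, 868 and 938 CPM, with both E18 libraries below both E15 libraries and a stage ratio of -0.52 (-0.55 to -0.49) in wild type. Its partners differed in pattern: Rplp1 had 46.8, 49.4, 48.8 and 40.3 CPM and Rplp2 23.2, 23.2, 20.8 and 17.0 CPM, each lowest in the knockout E18 library. Rpsa, also named the laminin receptor, had 127, 100, 87.3 and 85.4 CPM, highest in the wild-type E15 library.

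Genes that work with the ribosome were read in the same ratios, and each list is given by its median beside the counts past 1.5-fold. The shares of all genes to read them against are those given above, 9.29%, 8.59%, 8.49% and 10.6% higher and 9.51%, 10.7%, 17.9% and 21.5% lower. Among 19 elongation factor and other TOP mRNAs the medians were -0.13, -0.02, -0.21 and -0.19 for the genotype ratios at E15 and E18 and the stage ratios in wild type and knockout. Past 1.5-fold, 0, 1, 0 and 0 of them were higher and 0, 1, 3 and 4 lower. Eef1a1, which brings aminoacyl-tRNA to the ribosome, was the most abundant, with ratios of -0.46 at E15 and 0.09 at E18. Eif3f was the lowest of the list in both stage ratios (-1.58 and -1.29). Of 27 initiation factors, 22 lay above 0 at E18 with a median of 0.14, while 0 were past 1.5-fold in either direction, and at E15 the median was 0.02 with 2 higher.

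Ribosome biogenesis factors, 50 genes, had medians of -0.10, 0.02, -0.23 and -0.04, with 2, 0, 1 and 0 higher and 1, 3, 8 and 6 lower, none of these counts above the share over all genes. Gar1, of the box H/ACA particle, had 109, 296, 53 and 79 reads, highest in the knockout E15 library, and was the highest of the list at E15 (1.26) and the lowest in both stage ratios (-1.08 and -2.06). Mitochondrial ribosomal protein genes had medians of 0.14, 0.04, -0.03 and -0.12, with 4, 1, 4 and 1 higher and 0, 2, 3 and 8 lower of 72 to 74 measured. In the stage ratio of the knockout their median, -0.12, was near that of all genes, -0.10, while that of the cytosolic family was -0.39. The difference between the families was not tested. Fau, which encodes a ubiquitin-like protein fused to ribosomal protein S30 and lies outside the naming rule, had 542, 672, 601 and 661 reads and ratios of 0.23, -0.07, -0.14 and -0.44, and Rack1, on the small subunit, had ratios of 0.01, 0.04, -0.09 and -0.06.

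Regulators of ribosome production were read in the same ratios. The 21 genes of mTORC1 signalling and TOP mRNA control had medians of 0.00, 0.04, -0.17 and -0.10, with 1, 2, 0 and 2 higher and 0, 1, 1 and 3 lower. Larp1, which binds TOP mRNAs, was the lowest of them at E18 (-0.67). RNA polymerase I genes, which serve ribosomal RNA synthesis, had medians of 0.13, 0.00, -0.14 and -0.13 over 20 or 21 genes, with 2, 3, 1 and 0 higher and 0, 1, 3 and 5 lower. The 9 genes of the Myc family had medians of -0.06, -0.21, -0.24 and -0.30, with 0 higher in any ratio and 0, 1, 1 and 3 lower. Listed ribosomal protein pseudogenes outside the naming rule, 18 to 22 of 80 measured, had medians of -0.15, -0.09, -0.33 and -0.23.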

How the data were processed

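RNA of mouse brain endothelial cells was sequenced in 4 libraries, 1 per genotype and stage. The series' design text speaks of triplicates, but 1 library per group was analysed here. The authors deposited a table per stage with read counts per Ensembl gene, per the file headers. The authors' CPM, the ratio (fold) of knockout to wild-type CPM, its log2 value and a p-value stand beside them in the deposited tables and were not used, except that the CPM were compared with those computed here and differed by at most 0.0195%. Per the submitters' processing notes, HTSeq 0.6.0, TopHat2 2.0.12 and Bowtie2 2.2.3 were among the tools and mm9 was the build, with no role given to a tool, yet 90.1% of gene positions are identical to GENCODE M21 on GRCm38, so coordinates are read as GRCm38. Strand use and the treatment of multi-mapping or overlapping reads are not given in the sources used here. Reads may be split between members and near-identical copies or overlapping genes.

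CPM were computed from library totals over all listed genes. Ratios, filters and calls are given in the report. The additive fits used edgeR 4.0.16 with library totals on genes that reached 1 CPM in 2 or more libraries (common dispersion 0.11), and DESeq2 1.42.0 as an alternative. The pair ratios and the edgeR fit for genotype were also run on simulated data. Transcript and coding lengths, 50-base stretches and exon overlap came from GENCODE M21, taking the shortest of the best supported principal transcripts. Start sequences came from RefSeq's promoter table, which matched 64 members. The members and gene lists were chosen with earlier results of these data known. Named members were, for each ratio, the 5 highest and 5 lowest with at least 100 reads over both libraries, the 10 highest per kb of transcript, paralogue pairs, X-linked members, stalk and reference genes and members listed at 1 stage, and of the other lists the extremes and the most abundant gene. Alternatives covered scaling, pseudocount, filter, pseudogene reads, fold and the terms of the fit. Those added after seeing the data were centring by transcript length or by the median of all genes, and leaving out members with pseudogene names and Rps19bp1. A few members that the rule would name are not reported by name here and are left out of the plots of levels and overlap; counts and medians include them.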

Additional observations from a re-analysis of the deposited data

Results flagged for a closer look

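In 11 members the genotype ratio had opposite signs at E15 and E18, with both counting intervals off 0 and both log2 ratios at least 0.25 from 0. With 1 library per group the difference between the stages was not tested, and 10.2% of all genes met the same condition. Among those higher in the knockout at E15 and lower at E18 were Rpl22l1 (0.789 and -0.457), Rpl38 (0.951 and -0.321), Rpl19 (0.425 and -0.362), Rpl35a (0.379 and -0.402), Rpl34 (0.348 and -0.384), Rps19 (0.345 and -0.317), Rps4x (0.266 and -0.261) and Rps26 (0.262 and -0.397). The reverse was found for Rps13 (-0.57 and 0.429) and Rps2-ps6 (-0.45 and 0.734).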

How the results depend on the processing

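No paired analysis was possible because each group holds 1 library and no label pairs libraries across groups (the additive fits hold stage and genotype as terms), and leaving out a library leaves no residual degree of freedom. The median ratio of the members kept its sign under every alternative at E18 (-0.16 to -0.08) and in the stage ratios of wild type (-0.28 to -0.05) and knockout (-0.42 to -0.23). At E15 it ran from -0.07 to 0.06. Of the alternative values, 125 stayed within the tolerance and 47 moved. For the medians the tolerance was 0.18 to 0.19 on the log2 scale. This was wider than the main medians at E15, E18 and in wild type (0.04, -0.13 and -0.16). A median could therefore turn its sign, as at E15, or shrink towards 0 and still be within it. In the order E15, E18, wild type and knockout, the main counts past 1.5-fold were 9, 2, 2 and 1 higher and 0, 3, 5 and 22 lower, and those that moved were as follows. TMM and DESeq2 scaling each gave 3 lower in wild type and 11 in the knockout. A pseudocount of 0.1 CPM gave 2 lower at E15, 6 at E18 and 8 in wild type. A pseudocount of 5 CPM gave 4, 1, 1 and 0 higher, and 0 lower at E18, 3 in wild type and 13 in the knockout. Among members of at least 50 CPM, 0, 1, 0 and 0 were higher, and 0 lower at E18, 1 in wild type and 4 in the knockout, with 25 to 30 members measured. At 2-fold, 1, 0 and 0 were higher at E15, E18 and in the knockout, and 0, 2 and 4 lower at E18, in wild type and knockout. The centrings on like-length genes and on all genes each gave 3 lower in wild type and 12 in the knockout, and that by length 2 lower at E15. Without pseudogene names and Rps19bp1, 1 was higher at E18 and 0 in the knockout. DESeq2 called 1 member lower by stage, and the other additive fits 0. Over all genes, the additive stage fit called 53 higher and 49 lower, against 122 and 58 with TMM, 356 and 360 with DESeq2, 19 and 22 without a filter, and 1 and 0 with stage as the only term. For genotype, TMM called 3 genes and DESeq2 35 higher and 9 lower. The share of reads in members, in the library order of the report, was 1.08%, 0.990%, 0.846% and 0.838% without mitochondrial genes in the total, 0.964%, 0.880%, 0.753% and 0.750% without paralogue pairs, and 1.09%, 1.00%, 0.858% and 0.849% with pseudogene reads. In each, both E18 values lay below both E15 values. Beyond what their construction shows, the cause of these shifts was not tested. Low read counts limit what can be said of the 8 members left out of the ratios, and why their counts were low was not tested.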
